A study of Homo sapiens with 72 samples.

Results

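The 44 genes described here act in DNA replication and in the passage of the cell cycle from G1 into S phase. They were taken by gene symbol from 11 tables of the authors' own comparisons, each of which lists 61541 Ensembl gene IDs. Each of the 44 symbols matched 1 ID, and each had an adjusted p in all 11 tables. The study concerns G3BP1, an RNA-binding protein that nucleates stress granules, the cytoplasmic bodies of RNA and protein that form when translation stalls. Its paralog is G3BP2, and the NTF2-like domain of G3BP1 is the part through which the protein dimerises and binds several partners.

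RNA immunoprecipitation with sequencing (RIP-seq) compared 3 immunoprecipitates with 3 inputs from Flp-In 293 T-REx cells, a derivative of human embryonic kidney cells, in which a stably integrated FLAG-tagged G3BP1 was induced with tetracycline at 1 ug/mL for 24 h. The other libraries came from U2OS cells, a human osteosarcoma line. A first experiment held 2 libraries each of wild-type cells, of cells with a G3BP1/2 knockout and of knockout cells transfected with G3BP1 (G3BP1 rescue). A second held 2 libraries each of knockout cells, of knockout cells transfected with wild-type G3BP1 (wild-type rescue) and of knockout cells transfected with G3BP1 that lacks the NTF2 domain (NTF2-deletion rescue), and 2 more of each after 200 uM sodium arsenite for 2 h. Arsenite causes oxidative stress and induces stress granules. All rescued cells carry the knockout background and were collected 24 h after transient transfection, whereas the knockout groups were not transfected. The labels give no transfection for the wild-type cells either. No mock-transfected group was analysed here, so transfection and the transfected protein cannot be told apart in any comparison of rescue with knockout or wild type. Whether the knockout line is 1 clone, and whether replicate libraries came from separate cultures, is not given in the sources used here, so the p-values measure the spread between these libraries, which may be technical.

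Before S phase, the origin recognition complex with CDC6 and CDT1 loads the MCM2-7 helicase onto DNA. Cyclin E with its kinase partner, and the E2F transcription factors that are held back by the retinoblastoma protein, then open S phase, in which CDC45, the GINS complex and MCM10 turn the loaded helicase into a moving one. Polymerases, the PCNA clamp and its RFC loader copy the DNA, RPA covers single strands, and enzymes such as ribonucleotide reductase and thymidylate synthase supply nucleotides. Many of these genes are E2F targets whose transcripts peak around the G1/S boundary, and proliferating lines such as U2OS and 293 cells express them at high levels. In bulk RNA, a smaller share of cells in S phase and less transcript per cell cannot be told apart.

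Reads assigned to genes ran from 38.6 to 52.5 M per library in the first experiment and from 10.6 to 25.9 M in the second. For the U2OS libraries, the reads of each library divided by its size factor (normalised reads below) were recovered from the authors' deposited base means, and the 2 libraries of a group are named a and b in no order. The median gap between the 2 libraries of a group over the 44 genes was 0.03 to 0.08 on the log2 scale, and the largest was 0.33 for CCNE1 in knockout cells of the second experiment. The targeted gene went with the labels in direction in both experiments but to different extents. G3BP1 stood at 12628 and 12603 normalised reads in knockout, 19023 and 18087 in wild-type and 20087 and 20375 in rescue libraries of the first experiment, so that G3BP1 transcript was still counted in the knockout. G3BP2, also targeted, stood at 6609.8 and 6399 in knockout, 8622 and 8091 in wild-type and 7739.7 and 7666 in rescue libraries, and in the second experiment, where only G3BP1 was transfected, it was at 0.55 and 0.57 over knockout in the authors' deposited tables. In the second experiment the log2 fold change of G3BP1 over knockout was 7.31 for the wild-type and 7.75 for the NTF2-deletion rescue in the authors' deposited tables. Of 8 osteosarcoma markers, COL1A1, SPARC, VIM, RUNX2, ALPL and SPP1 were present in every U2OS library, COL1A1 with a lowest value of 22925 normalised reads in the first experiment, while COL1A2 stayed under 30 and TWIST1 at 0 to 1.12. Of 4 epithelial markers the keratin genes KRT8 and KRT18 and, at a lower level, EPCAM (42.4 to 553 normalised reads) were present too, while CDH1 was at 4.20 to 38.3. The endothelial VWF ran from 11.7 to 307, the immune PTPRC reached 42.5, and CD3E, PECAM1 and CDH5 stayed under 10.

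The promoters of the 44 genes were read for the words bound by E2F factors, since these genes are known as E2F targets. RefSeq windows of 300 bases on GRCh38.p14 (250 before and 50 after the start) were at hand for 37 of the 44 genes. At least 1 of the words TTTCCCGC, TTTGGCGC, TTTCGCGC and TTTGCCGC, searched on both strands with overlaps allowed, stood in a window of 20 of the 37 genes (54.1%) and of 1090 of 27305 genes in the table (3.99%). Counted by window, the shares were 43.8% of 48 windows of the 44 genes and 3.31% of 35116 windows. The word CCAAT, a common promoter element, was found in 23 of the 37 genes (62.2%) and in 39.7% of all genes. Stretches of 5 promoters, from RefSeq, are given 5′ to 3′ on the strand of the gene, with the E2F word in capitals. The first 3 are of genes that rose in both rescues of the second experiment and the last 2 of genes that fell in both. They lie at chr13:33818058-33818137 (RFC3, plus strand), chr19:4909451-4909500 (UHRF1, plus strand), chr16:88803718-88803788 (CDT1, plus strand), chr1:23531234-23531311 (E2F2, minus strand) and chr19:48170415-48170494 (LIG1, minus strand), upstream of the start of each gene.
RFC3: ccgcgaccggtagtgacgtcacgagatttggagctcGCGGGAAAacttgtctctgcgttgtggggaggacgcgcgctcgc
UHRF1: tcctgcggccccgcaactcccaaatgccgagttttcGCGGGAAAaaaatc
CDT1: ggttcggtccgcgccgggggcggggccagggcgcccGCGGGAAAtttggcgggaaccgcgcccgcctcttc
E2F2: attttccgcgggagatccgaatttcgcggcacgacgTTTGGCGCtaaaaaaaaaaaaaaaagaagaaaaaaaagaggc
LIG1: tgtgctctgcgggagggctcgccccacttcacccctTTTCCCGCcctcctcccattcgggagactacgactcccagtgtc
In RFC3, UHRF1 and CDT1 the word is the reverse complement of TTTCCCGC, which LIG1 carries in the other orientation. E2F2 carries TTTGGCGC. Such a word stood in 11 of 20 genes with a window that rose in both rescues, in 2 of 3 that fell in both and in 5 of 8 that were called in neither. A match of letters is a description and not a binding site.

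**Figure D1:**
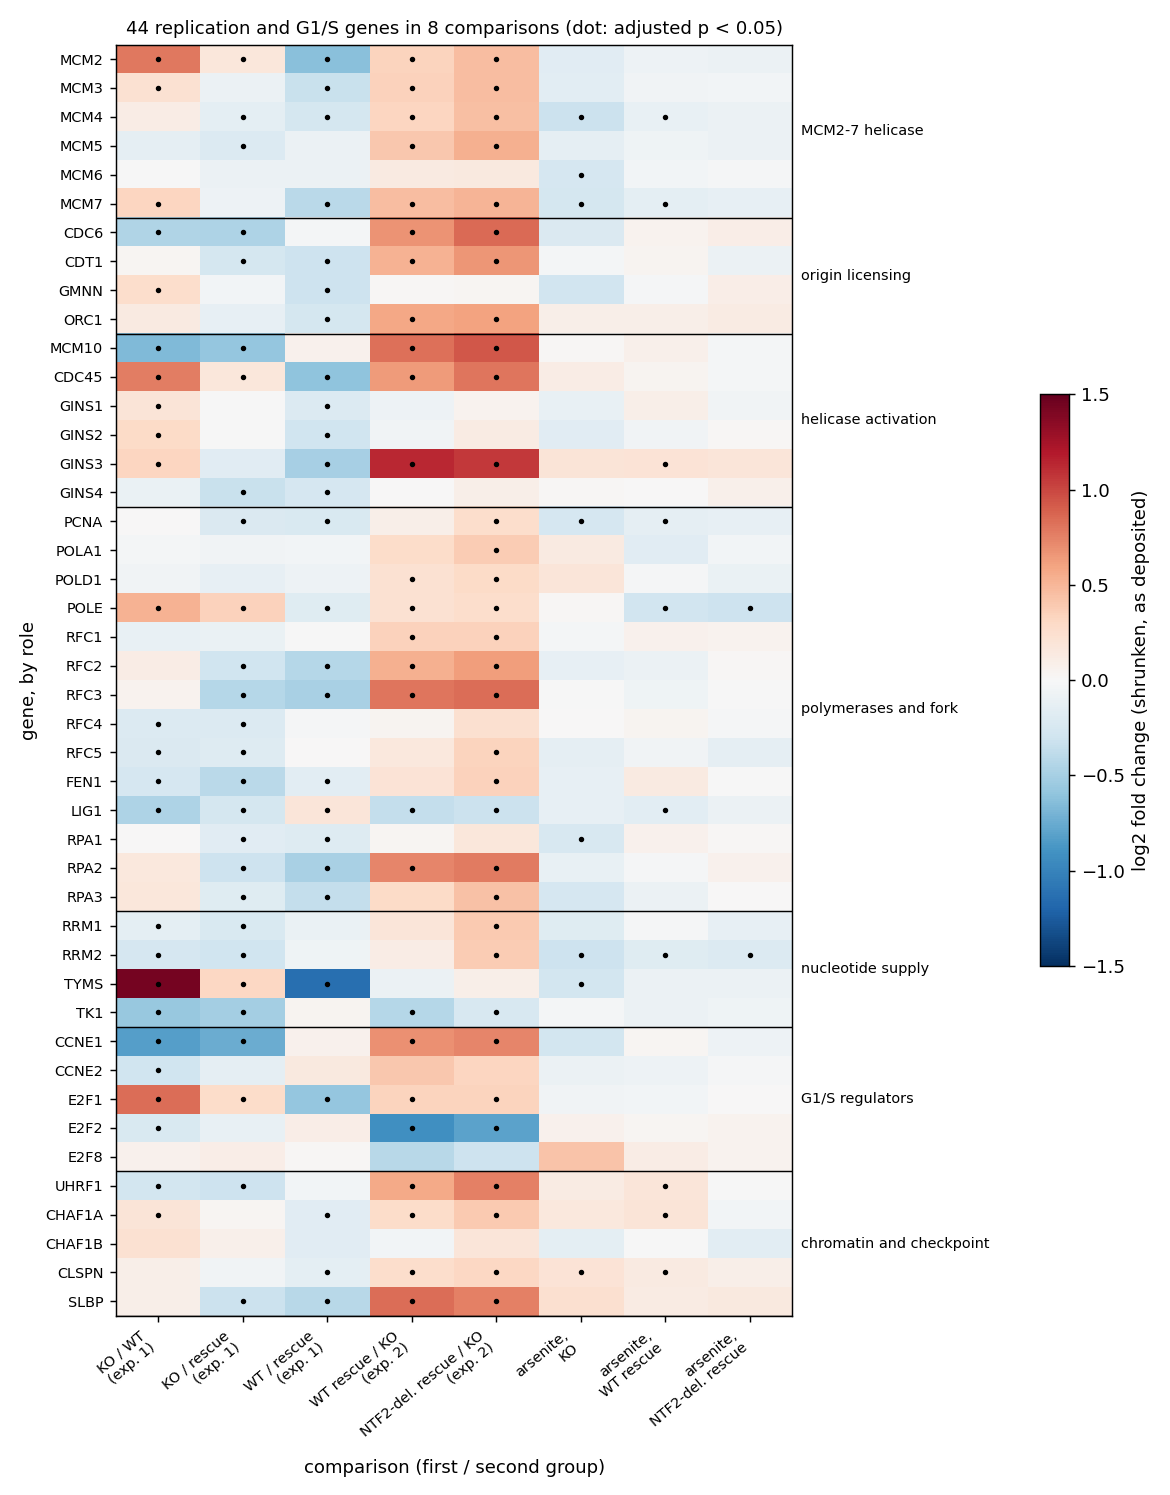
Log2 fold changes of the 44 genes, in rows grouped by role, in 8 comparisons of U2OS cells, in columns (first group over second), with red for higher, blue for lower and a dot for an adjusted p under 0.05. Both rescue columns of the second experiment are mostly red. Cells are blue in both for E2F2, TK1, LIG1 and E2F8, of which E2F8 was not called. The knockout over wild type column holds both colours, with TYMS the reddest and CCNE1 the bluest.

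Reintroducing G3BP1 in the second experiment went with higher levels of most licensing and helicase genes. The authors' deposited table for the wild-type rescue has 23 of the 44 genes higher than in knockout and 3 lower, where 23% of all tested genes rose and 19.1% fell. In the authors' deposited table for the NTF2-deletion rescue, 30 rose and 3 fell, against 22.8% and 18.7% of all tested genes. The median log2 fold change of the 44 genes was 0.27 and 0.36, where that of all tested genes was -0.03 and -0.02. The 23 genes that rose in the wild-type rescue all rose in the NTF2-deletion rescue too, and E2F2, LIG1 and TK1 fell in both, where 21.4% of all genes rose and 17.2% fell in both. Both tables use the same knockout libraries, so they are not independent of each other.

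Of the helicase subunits MCM2 to MCM7, 5 of 6 rose in each rescue. MCM2 stood at 3496 and 3752 normalised reads in knockout, 4481 and 4525 in wild-type rescue and 4982 and 4828 in NTF2-deletion rescue libraries. Each rescue library lay above both knockout libraries. In the authors' deposited tables the MCM2 fold changes on the log2 scale were 0.33 (SE 0.06, adjusted p 3.66e-07) and 0.46 (SE 0.07, adjusted p 2.00e-11). MCM5 had 2076 and 2145 normalised reads in knockout, 2776 and 2739 in wild-type rescue and 3163 and 2853 in NTF2-deletion rescue, again without overlap, with 0.41 (SE 0.07, adjusted p 1.02e-07) and 0.53 (SE 0.08, adjusted p 2.43e-10) in the authors' deposited tables. MCM3, MCM4 and MCM7 rose by 0.32 to 0.46 in the wild-type rescue and by 0.45 to 0.51 in the NTF2-deletion rescue (authors' deposited tables, log2). MCM6, the remaining subunit, was at 0.13 and 0.14 and was not called in either of the authors' deposited tables.

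The helicase loaders CDC6 and CDT1 and the origin recognition subunit ORC1 rose in both rescues, and GMNN, which encodes the CDT1 inhibitor geminin, was called in neither. CDC6 went from 716 and 740.0 normalised reads in knockout to 1161 and 1139 in wild-type and 1301 and 1302 in NTF2-deletion rescue, with the 3 groups fully apart. Its log2 fold changes in the authors' deposited tables were 0.67 (SE 0.11, adjusted p 3.25e-09) and 0.85 (SE 0.11, adjusted p 7.74e-15). For CDT1 they were 0.52 (SE 0.11, adjusted p 6.63e-06) and 0.66 (SE 0.10, adjusted p 1.48e-09), and for ORC1 0.57 and 0.60, in the authors' deposited tables. GMNN stood at 0.02 and 0.03 there.

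Among the genes that activate the helicase, GINS3 had the highest fold change of the 44 in both rescues. It had 314 and 360.2 normalised reads in knockout, 725 and 741 in wild-type rescue and 715 and 683 in NTF2-deletion rescue, so that every rescue library was well above both knockout libraries. The authors' deposited tables give 1.13 (SE 0.15, adjusted p 8.18e-14) and 1.06 (SE 0.15, adjusted p 5.09e-12) on the log2 scale. The other 3 subunits of the same complex, GINS1, GINS2 and GINS4, were not called and lay between -0.07 and 0.12 in the authors' deposited tables. MCM10, which helps the helicase to start, rose from 593 and 597 normalised reads to 1108 and 985 in wild-type and 1141 and 1104 in NTF2-deletion rescue. Its log2 fold changes were 0.83 (SE 0.12, adjusted p 4.27e-11) and 0.93 (SE 0.11, adjusted p 4.68e-15) in the authors' deposited tables. CDC45, the helicase cofactor, rose by 0.64 and 0.80 in the same authors' deposited tables.

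At the fork, 6 of 14 genes rose in the wild-type rescue and 11 in the NTF2-deletion rescue, and 1 fell in each. The clamp loader subunit RFC3 had the largest change of these, with 486 and 461 normalised reads in knockout, 798 and 837 in wild-type rescue and 825 and 851 in NTF2-deletion rescue. The authors' deposited tables give RFC3 0.80 (SE 0.13, adjusted p 5.25e-09) and 0.84 (SE 0.13, adjusted p 5.74e-10). The single-strand binding subunit RPA2 rose by 0.73 and 0.78, and the loader subunit RFC2 by 0.54 and 0.62, on the log2 scale of the authors' deposited tables. RFC1, the large loader subunit, rose by 0.34 and 0.34, and the polymerase catalytic subunits POLD1 by 0.23 and 0.29 and POLE by 0.23 and 0.26, on the log2 scale of the authors' deposited tables. The clamp PCNA, the primase-linked polymerase POLA1, RFC5, RPA3 and the flap nuclease FEN1 were called in the NTF2-deletion rescue and not in the wild-type rescue; PCNA was at 0.09 (adjusted p 0.409) and 0.26 (SE 0.08, adjusted p 0.00322) in the authors' deposited tables. RFC4 and RPA1 were called in neither. LIG1, the ligase that joins Okazaki fragments, went the other way, from 1672 and 1668 normalised reads in knockout to 1284 and 1286 in wild-type and 1353 and 1279 in NTF2-deletion rescue. Its log2 fold changes of -0.36 (SE 0.09, adjusted p 2.07e-04) and -0.32 (SE 0.09, adjusted p 0.00152) in the authors' deposited tables were among the 4 lowest of the 44.

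Of the 4 nucleotide supply genes, 0 rose and 1 fell in the wild-type rescue, and 2 rose and 1 fell in the NTF2-deletion rescue. TK1, the thymidine kinase of the salvage pathway, had 1279 and 1439 normalised reads in knockout, 989.9 and 994 in wild-type rescue and 1146 and 1116 in NTF2-deletion rescue, and each rescue library lay below both knockout libraries. Its log2 fold changes were -0.43 (SE 0.10, adjusted p 1.12e-04) and -0.24 (SE 0.10, adjusted p 0.0442) in the authors' deposited tables. TYMS, thymidylate synthase, was called in neither rescue, at -0.08 (adjusted p 0.200) and 0.09 (adjusted p 0.185) in the authors' deposited tables. The ribonucleotide reductase subunits RRM1 and RRM2 rose in the NTF2-deletion rescue. RRM2 had 3651 and 3700.2 normalised reads in knockout, 3954 and 3872 in wild-type rescue and 4719 and 4700.0 in NTF2-deletion rescue. The authors' deposited tables give RRM2 0.11 (adjusted p 0.134) and 0.38 (SE 0.06, adjusted p 5.09e-09).

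The G1/S regulators split. CCNE1, one of the cyclin E genes, had 476 and 598 normalised reads in knockout, 857 and 854 in wild-type rescue and 890.1 and 881 in NTF2-deletion rescue, and its knockout libraries differed more from each other than those of any other member in this group. Both lay below all rescue libraries, with 0.69 (SE 0.14, adjusted p 2.41e-06) and 0.74 (SE 0.14, adjusted p 3.10e-07) in the authors' deposited tables. The paralog CCNE2 was at 0.41 and 0.32 and was not called in either of the authors' deposited tables (adjusted p 0.129 and 0.241). The activating factor E2F1 rose from 1535 and 1716 normalised reads in knockout to 1977 and 2067 in wild-type and 1949 and 2073 in NTF2-deletion rescue, by 0.33 (SE 0.09, adjusted p 4.09e-04) and 0.33 (SE 0.09, adjusted p 8.01e-04) in the authors' deposited tables. E2F2, another activating E2F, fell from 601 and 623 normalised reads in knockout to 324 and 307 in wild-type and 365 and 322 in NTF2-deletion rescue. At -0.92 (SE 0.15, adjusted p 7.29e-09) and -0.80 (SE 0.15, adjusted p 7.01e-07) in the authors' deposited tables, it had the lowest fold change of the 44 in both rescues. The repressive factor E2F8 was at -0.42 (adjusted p 0.101) and -0.31 (adjusted p 0.248) in the authors' deposited tables.

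Of the chromatin and checkpoint genes, 4 of 5 rose in each rescue. SLBP, the histone mRNA stem-loop binding protein, had 442 and 497 normalised reads in knockout, 851 and 808 in wild-type rescue and 755 and 812 in NTF2-deletion rescue, with no overlap between knockout and rescue. The authors' deposited tables give SLBP 0.83 (SE 0.13, adjusted p 2.01e-09) and 0.75 (SE 0.13, adjusted p 1.28e-07). UHRF1, which recruits maintenance DNA methylation to new DNA, rose by 0.57 and 0.76, the chromatin assembly subunit CHAF1A by 0.27 and 0.39, and the checkpoint adaptor claspin (CLSPN) by 0.26 and 0.32, in the authors' deposited tables. CHAF1B, the partner of CHAF1A, was called in neither.

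**Figure D2:**
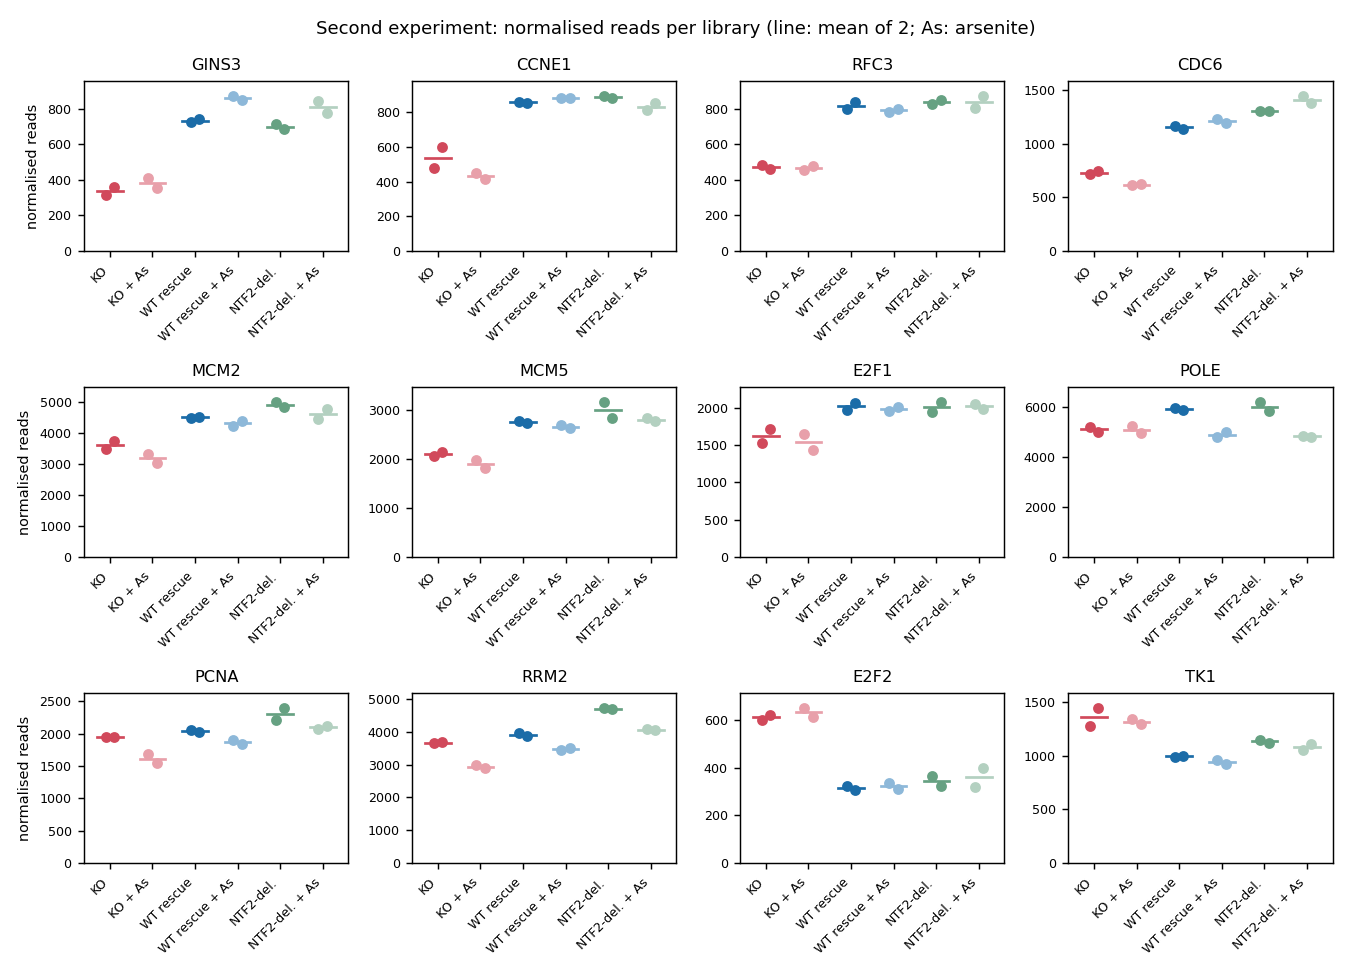
Normalised reads per library (vertical axes, each from 0) of 12 of the genes in the 6 groups of the second experiment, with 1 point per library and a line at the mean of 2; KO is knockout, NTF2-del. the NTF2-deletion rescue and As arsenite. GINS3, RFC3, CDC6 and CCNE1 have both knockout groups below all 4 rescue groups, and E2F2 and TK1 have them above.

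The size of these counts depends on the scaling of the tables. Over all genes whose base mean reached 100, the median log2 fold change was 0.18 in the wild-type rescue table and 0.17 in the NTF2-deletion rescue table, and with these medians set to 0 the splits became 18 higher and 5 lower, and 20 higher and 3 lower, where 17.3% and 25%, and 17.1% and 24.3%, of all genes were higher and lower. Calls of POLD1, POLE, E2F1, CHAF1A and CLSPN then ended in both rescues, TYMS and E2F8 became lower in the wild-type rescue, and PCNA, POLA1, RFC5, FEN1 and RPA3 were no longer called in the NTF2-deletion rescue. Summed over the 44 genes, normalised reads were 69143 and 71628 in knockout, 82569 and 82218 in wild-type rescue and 89433 and 88401 in NTF2-deletion rescue.

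The wider list of 50 other replication and G1/S genes was also higher more often than lower. It had 22 higher and 9 lower of 51 gene IDs in the wild-type rescue and 26 higher and 4 lower in the NTF2-deletion rescue, with medians of 0.30 and 0.30 in the authors' deposited tables. Its highest gene was CCND1, the G1 cyclin D1, at 1.83 and 1.84, and the nuclease gene DNA2 was lowest among called genes in the wild-type rescue at -0.62 (authors' deposited tables). Of 20 mitotic genes, 0 were higher and 13 lower in the wild-type rescue, with a median of -0.37, and 1 higher and 9 lower in the NTF2-deletion rescue, with a median of -0.29, in the authors' deposited tables. Their summed normalised reads fell from 63707 and 64349.8 in knockout to 44041 to 48389 in the 4 unstressed rescue libraries. Of 6 inhibitors of G1 and S cyclin kinases, 5 and 4 were lower, among them CDKN2B, which encodes p15, at -4.77 and -4.73 and CDKN1B, which encodes p27, at -2.18 and -2.14, while CDKN1A, which encodes p21, was higher at 0.48 and 0.51 (authors' deposited tables). The mitotic and inhibitor lists thus went mostly in the other direction from the 44 genes in the same libraries. The part of these lists in the result was not tested.

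**Figure D3:**
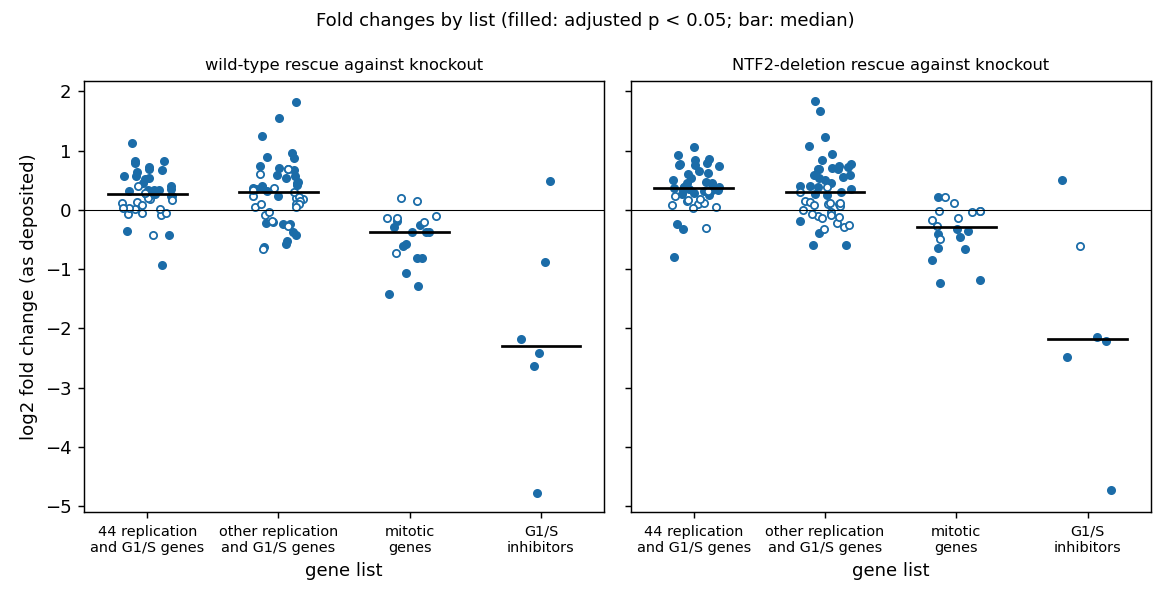
Log2 fold changes as deposited (vertical axis) of the 44 genes and 3 other gene lists in the wild-type rescue (left) and the NTF2-deletion rescue (right) against knockout; each point is a gene, filled where the adjusted p is under 0.05, and the bar is the median. Both replication lists have medians from 0.27 to 0.36, the mitotic medians are -0.37 and -0.29, and the inhibitors reach down to -4.77.

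The 2 rescues, which differ in the NTF2 domain and in the level of G3BP1 transcript, were then set against each other. G3BP1 was at 7.31 (wild-type) and 7.75 (NTF2-deletion) over knockout in the authors' deposited tables, so domain and level cannot be told apart. In the difference of the authors' deposited fold changes, 0 of the 44 were called larger and 0 smaller in the wild-type rescue, where 0% and 0.0185% of all tested genes were; 2 had an unadjusted p under 0.05. RRM2 had the largest of these differences, with a wild-type minus NTF2-deletion value of -0.27 (95% interval -0.44 to -0.10). By limma on the recovered reads, where the shared knockout libraries cancel, RRM2 was called at -0.27 (adjusted p 0.00245), where 0.306% of all genes were called in that direction, and the call was lost without wild-type rescue library b (adjusted p 0.0778). The normalised reads of 28 of the 44 genes were lower in both wild-type rescue libraries than in both NTF2-deletion rescue libraries, those of 1 gene higher, and those of 15 overlapped; over all genes with a mean of at least 10, 22.2% were lower in this way and 21.2% higher. For CDC6 the deposited difference was -0.18 with a 95% interval from -0.48 to 0.12, and for MCM2 it was -0.12 with an interval from -0.30 to 0.05. The error of the shared knockout libraries is counted in both fold changes. These intervals are therefore too wide, and the test of the deposited differences is conservative.

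In the first experiment the knockout was set against wild-type cells, and the 44 genes moved in both directions. By the authors' deposited table, 12 rose and 13 fell in knockout, where 18.4% of all tested genes rose and 19.4% fell, and the median of the 44 was 0.04 beside 0.01 for all tested genes. TYMS had 30852 and 30704 normalised reads in knockout, 11538 and 11151 in wild-type and 24459.6 and 24819 in G3BP1 rescue libraries. It was the highest of the 44 over wild type, at 1.43 (SE 0.05, adjusted p 6.96e-218) by the authors' deposited table, and the rescue libraries lay nearer to knockout than to wild type. E2F1 had 5173 and 5008 normalised reads in knockout, 2859.6 and 2786 in wild type and 3946 and 4383 in rescue, with 0.84 (SE 0.06, adjusted p 9.64e-38) over wild type by the authors' deposited table. MCM2, with 13258 and 12575, 7958 and 6836 and 11061 and 11652 normalised reads in the same order, was at 0.80 (SE 0.07, adjusted p 3.31e-31), and CDC45 was at 0.77 (SE 0.07, adjusted p 1.18e-26), by the authors' deposited table. In all 4 genes the 3 groups did not overlap, with wild type lowest, rescue between and knockout highest. POLE followed the same order, at 0.52, and GINS1, GINS2, GINS3, GMNN, MCM3, MCM7 and CHAF1A rose by 0.19 to 0.33 over wild type, in the authors' deposited table. TYMS overlaps the genes TYMSOS and ENOSF1, and without knowledge of strand in the counting its reads cannot be told from theirs where they overlap. The same limit holds for other members that overlap a gene in RefSeq. Among them are MCM7 (AP4M1), ORC1 (PRPF38A), RPA3 (UMAD1), RFC5 (WSB2), GINS2 (GSE1), UHRF1 (ARRDC5), CHAF1A (UBXN6) and CCNE2 (INTS8 and NDUFAF6).

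The lowest genes in knockout were CCNE1, MCM10, TK1 and LIG1. CCNE1 had 2057 and 2063 normalised reads in knockout, 3688 and 3592 in wild type and 3509.6 and 3345 in G3BP1 rescue. Both knockout libraries lay far below the other 4, and the authors' deposited table gives -0.82 (SE 0.07, adjusted p 9.57e-30) against wild type. MCM10, with 2464 and 2369, 3891 and 3734 and 3539.6 and 3642 normalised reads in the same order, was at -0.66 (SE 0.07, adjusted p 9.14e-20), and TK1, with 4534 and 4543, 6986 and 6412 and 6192 and 6664, at -0.56 (SE 0.06, adjusted p 1.89e-18), by the authors' deposited table. LIG1 was at -0.46 (SE 0.07, adjusted p 6.00e-11), CDC6 at -0.45 (SE 0.07, adjusted p 1.73e-08) and RRM2 at -0.25 there. CCNE2 fell by 0.29 (adjusted p 0.0251), and UHRF1, FEN1, E2F2, RFC4, RFC5 and RRM1 were lower by values from -0.28 to -0.14, in the authors' deposited table. MCM5 at -0.13, PCNA at 0.00, CDT1 at 0.04, E2F8 at 0.07 and SLBP at 0.09 were not called in the authors' deposited table.

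**Figure D4:**
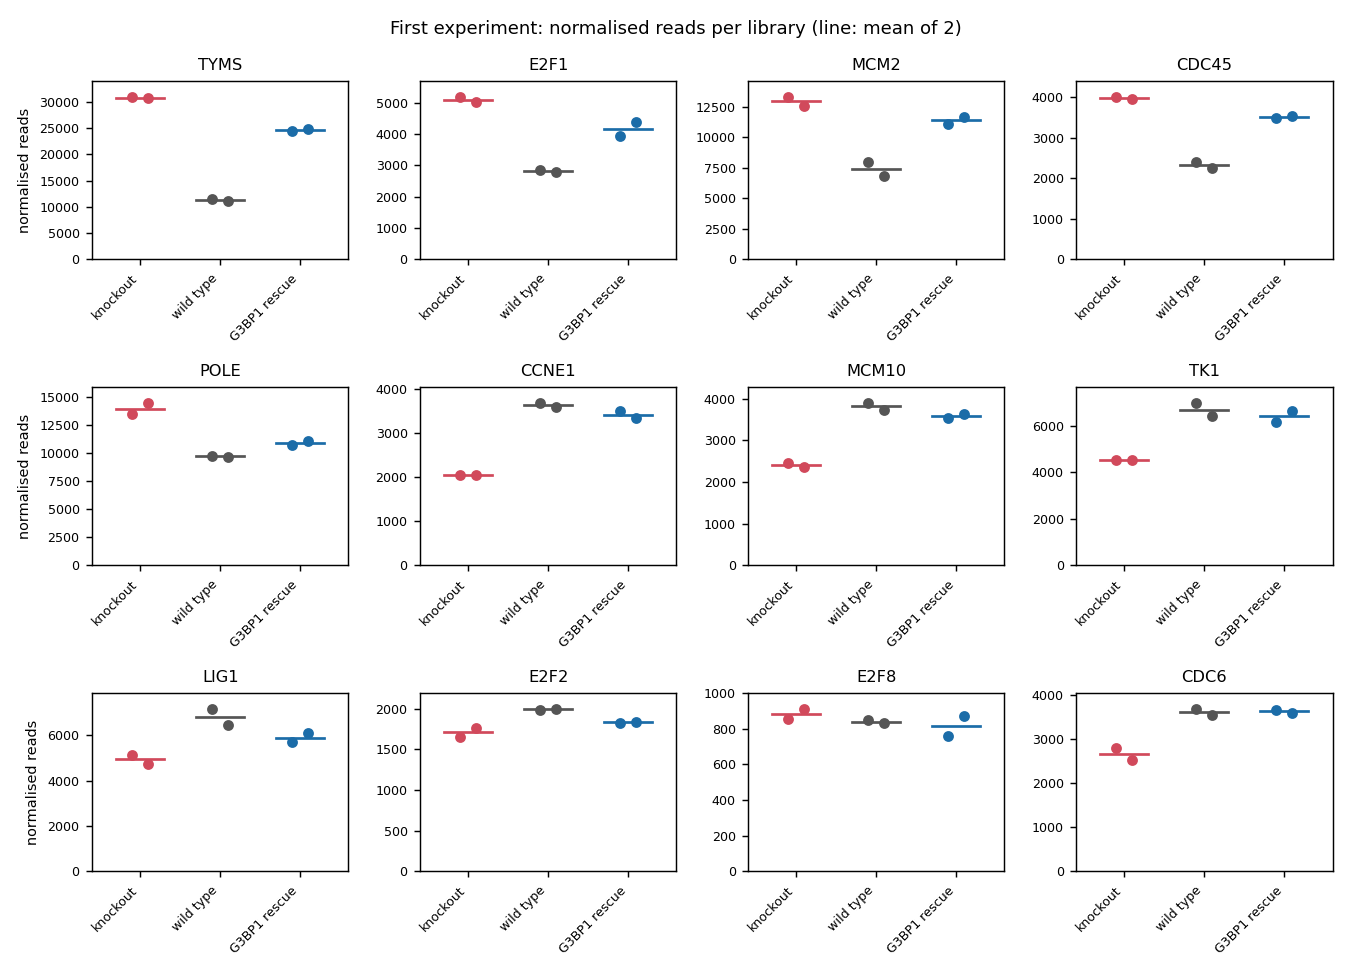
Normalised reads per library (vertical axes, each from 0) of 12 of the genes in knockout, wild-type and G3BP1 rescue cells of the first experiment, with 1 point per library and a line at the mean of 2. TYMS, E2F1, MCM2 and CDC45 are highest in knockout with rescue between, and CCNE1, MCM10, TK1 and CDC6 are lowest in knockout with rescue near wild type.

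Set against the G3BP1 rescue of the same experiment, knockout cells showed 5 of the 44 genes higher and 22 lower in the authors' deposited table, where 16.1% of all tested genes were higher and 21.5% lower. The 4 lowest were CCNE1 at -0.74 (SE 0.07, adjusted p 5.12e-26), MCM10 at -0.58 (SE 0.07, adjusted p 2.37e-17), TK1 at -0.51 (SE 0.06, adjusted p 5.23e-18) and CDC6 at -0.46 (SE 0.07, adjusted p 3.47e-10) by the authors' deposited table. The 5 higher genes were POLE at 0.35 (SE 0.05, adjusted p 1.17e-11), TYMS at 0.31, E2F1 at 0.27, MCM2 at 0.17 and CDC45 at 0.17 (authors' deposited table), all of which were higher in knockout than in wild type too, as were 11% of all genes. Of the genes followed throughout, SLBP at -0.32, RRM2 at -0.30, CDT1 at -0.26, PCNA at -0.21 and MCM5 at -0.21 were lower in knockout, and CCNE2 at -0.13 and E2F8 at 0.10 were not called, in the authors' deposited table. There were 11 genes below both wild type and rescue in knockout, namely CCNE1, CDC6, FEN1, LIG1, MCM10, RFC4, RFC5, RRM1, RRM2, TK1 and UHRF1, where 13% of all genes tested in both were. Both comparisons share the knockout libraries, so a library-specific level in these 2 would enter both.

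Wild-type cells had 1 gene higher than the G3BP1 rescue and 25 lower in the authors' deposited table, where 15.2% of all tested genes were higher and 20.4% lower. LIG1 was the higher one, at 0.18 (SE 0.06, adjusted p 0.0110), and TYMS at -1.13 (SE 0.04, adjusted p 3.57e-159), MCM2 at -0.63 (SE 0.06, adjusted p 3.48e-22), CDC45 at -0.61 (SE 0.07, adjusted p 3.32e-18) and E2F1 at -0.57 (SE 0.07, adjusted p 6.58e-16) were the lowest in the authors' deposited table. Rescue cells thus had more of these 4 transcripts than wild-type cells, and less than knockout cells. Only the rescue cells were transfected, so transfection and the transfected protein cannot be told apart here. SLBP at -0.42, CDT1 at -0.31 and PCNA at -0.22 were lower in wild type as well, in the authors' deposited table. CCNE1 at 0.06, CCNE2 at 0.15, CDC6 at -0.03, MCM10 at 0.06, TK1 at 0.04, E2F2 at 0.10, RRM2 at -0.06, MCM5 at -0.09 and E2F8 at 0.02 were not called there. With table medians set to 0, the split was 1 higher and 21 lower, and for knockout against rescue 5 higher and 18 lower. Of all genes, 17.6% and 19% were then higher, and 18% and 18.8% lower. Of the 50 other replication genes, 20 rose and 9 fell in knockout against wild type, while 5 were higher and 21 lower in knockout against rescue and 2 higher and 26 lower in wild type against rescue. The mitotic list had 5 higher and 9 lower, 1 higher and 12 lower, and 1 higher and 9 lower in the same 3 authors' deposited tables.

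The 2 experiments share no libraries and both compare knockout with G3BP1-transfected cells. There were 11 genes lower in knockout than in rescue in the first experiment and higher in wild-type rescue than in knockout in the second. They were CCNE1, CDC6, CDT1, MCM10, MCM4, MCM5, RFC2, RFC3, RPA2, SLBP and UHRF1. Of all genes tested in both tables, 14.4% showed the same pair of calls. CCNE1 illustrates the size, with -0.74 for knockout against rescue in the first and 0.69 for rescue against knockout in the second of the authors' deposited tables. The reverse matching pair, higher in knockout than in rescue and lower in wild-type rescue than in knockout, was found in 0 of the 44 genes. Over all genes tested in both tables it was found in 10.6%. For 4 genes, CDC45, E2F1, MCM2 and POLE, the direction was opposite, since knockout was above rescue in the first experiment and below it in the second, as in 1.36% of all genes. E2F1 was 0.27 for knockout against rescue and 0.33 for rescue against knockout in the authors' deposited tables, and with the table median set to 0 the second of these calls and that of POLE ended. LIG1 and TK1 were opposite as well, being below rescue in the first knockout group and above it in the second, as in 1.86% of all genes. The difference between experiments was not tested, since the tables were normalised separately.

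The response of the 44 genes to arsenite for 2 h was taken from the authors' deposited calls, and limma called more of them in knockout cells. In treated against untreated knockout cells 1 rose and 7 fell in the authors' deposited table, where 8.56% of all tested genes rose and 10.9% fell. In the wild-type rescue 4 rose and 6 fell, against 8.18% and 12.2%, and in the NTF2-deletion rescue 0 rose and 2 fell, against 2.43% and 6.14%, in the authors' deposited tables. The medians of the 44 genes were -0.11, -0.02 and -0.02 in the same order. In none of the 3 were 31 of the 44 genes called (authors' deposited tables), where 66.5% of all genes tested in all 3 were called in none, a share near that of the members.

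RRM2 was lower with arsenite in every background. It went from 3651 and 3700.2 to 2979.9 and 2893 normalised reads in knockout, from 3954 and 3872 to 3454 and 3518 in wild-type rescue and from 4719 and 4700.0 to 4077 and 4060.5 in NTF2-deletion rescue, without overlap between treated and untreated libraries. The authors' deposited tables give RRM2 -0.31 (SE 0.07, adjusted p 1.44e-04), -0.18 (SE 0.04, adjusted p 8.02e-05) and -0.20 (SE 0.05, adjusted p 8.01e-04). In knockout cells the lowest genes were MCM4 at -0.32 (SE 0.07, adjusted p 1.14e-04), RRM2, GMNN at -0.29 (not called) and CCNE1 at -0.28 (not called), and TYMS at -0.27, MCM7 at -0.26, MCM6 at -0.25, PCNA at -0.25 and RPA1 at -0.24 fell too, in the authors' deposited table. MCM4 had 3954 and 3739.7 normalised reads in untreated and 3117 and 2961 in treated knockout libraries. CLSPN rose, at 0.20 (SE 0.08, adjusted p 0.0423), while E2F8 at 0.43, SLBP at 0.24 and GINS3 at 0.19 had high fold changes that were not called in the authors' deposited table. The other followed genes, CDC6 at -0.22, MCM2 at -0.17, MCM5 at -0.13, CCNE2 at -0.09, E2F1 at -0.06 and CDT1 at -0.03, were not called there. By limma on the recovered reads 4 rose and 16 fell in knockout cells, where 16.2% of all genes rose and 18.7% fell.

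POLE fell with arsenite in both rescues and not in knockout cells. It had 5960.2 and 5905 normalised reads in untreated and 4808 and 4995 in treated wild-type rescue libraries, 6199.5 and 5867 and 4865 and 4815 in the NTF2-deletion rescue, and 5228 and 4999 and 5241 and 4985 in knockout cells. Treated rescue libraries lay below all 4 untreated rescue libraries, and treated and untreated knockout libraries overlapped. The authors' deposited tables give POLE -0.29 (SE 0.04, adjusted p 4.31e-13), -0.31 (SE 0.05, adjusted p 1.09e-08) and, in knockout, 0.01 (adjusted p 0.946). The difference itself, response in the wild-type rescue minus response in knockout, was -0.30 (SE 0.08, adjusted p 0.00278 by a normal test of the DESeq2 fold changes), and for the NTF2-deletion rescue it was -0.32 (SE 0.08, adjusted p 0.00231). By this test of the deposited values POLE was the 1 member called in each case, as smaller, where 2.68% and 3.08% of all tested genes were called smaller and 1.82% and 4.04% larger, and 7 and 8 members had an unadjusted p under 0.05. By limma, 6 members were called larger and 1 smaller in the first test, where 5.9% and 4.11% of all genes were, and 6 larger and 2 smaller in the second, where 8.22% and 5.78% were. The larger ones were CDC6, RPA1, MCM4, MCM6 and TYMS in both, with FEN1 in the first and GMNN in the second, and the smaller ones were POLE in both and POLD1 in the second. Both tests use the same knockout libraries. In limma fits that left out a library, the first of these POLE calls was lost without treated wild-type rescue library a (adjusted p 0.0561). The authors' deposited fold changes called 0 members larger and 0 smaller between the 2 rescues' own responses, where 0.101% and 0.227% of all genes were called, 2 had an unadjusted p under 0.05, and limma called 0.

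In the wild-type rescue the lowest genes with arsenite were POLE, RRM2, POLA1 at -0.17 (not called) and LIG1 at -0.16 (SE 0.06, adjusted p 0.0474), followed by MCM7 at -0.15, PCNA at -0.14 and MCM4 at -0.11, which fell, in the authors' deposited table. The genes that rose were GINS3 at 0.21 (SE 0.07, adjusted p 0.0310), CHAF1A at 0.19 (SE 0.06, adjusted p 0.00438), UHRF1 at 0.18 (SE 0.05, adjusted p 0.00209) and CLSPN at 0.13 in the authors' deposited table, and FEN1, above CLSPN at 0.14, was not called. Of the followed genes, SLBP was at 0.13, E2F8 at 0.11, CDC6 at 0.06, CDT1 at 0.04, CCNE1 at 0.03, E2F1 at -0.04, MCM5 at -0.07, CCNE2 at -0.07, MCM2 at -0.08 and TYMS at -0.08 in the authors' deposited table, none of them called. In the NTF2-deletion rescue the lowest after POLE and RRM2 were CHAF1B at -0.16 and RFC5 at -0.14, and the highest were GINS3 at 0.18, SLBP at 0.15, ORC1 at 0.12 and CDC6 at 0.11, none of these 6 called in the authors' deposited table. PCNA at -0.13, MCM2 at -0.09, MCM5 at -0.09, TYMS at -0.09, CDT1 at -0.08, CCNE1 at -0.08, CCNE2 at -0.02, E2F1 at 0.01 and E2F8 at 0.06 were not called there either. The mitotic list had 4 higher and 2 lower of 20 in knockout, 1 higher and 1 lower of 19 in the wild-type rescue and 0 and 0 of 19 in the NTF2-deletion rescue (authors' deposited tables).

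After arsenite, CDC6 kept the order of the untreated groups. It had 612 and 621 normalised reads in treated knockout, 1229 and 1195 in treated wild-type rescue and 1438 and 1381 in treated NTF2-deletion rescue, without overlap between groups. Set against untreated knockout in the authors' deposited tables, the treated wild-type rescue showed 24 of the 44 genes higher and 3 lower, where 25.1% of all tested genes were higher and 19.8% lower, and the treated NTF2-deletion rescue 27 higher and 3 lower, where 23.3% and 19.6% were. In both, GINS3 at 1.40 (SE 0.13, adjusted p 2.00e-26) and 1.29 (SE 0.14, adjusted p 4.75e-19) was highest and E2F2 at -0.84 (SE 0.14, adjusted p 5.63e-09) and -0.72 (SE 0.15, adjusted p 1.22e-05) lowest, in the authors' deposited tables. SLBP stood at 1.03 and 0.94, MCM10 at 0.96 and 0.92, UHRF1 at 0.82 and 0.77 and CDC6 at 0.79 and 0.98 (authors' deposited tables). TK1 at -0.46 and -0.30 and LIG1 at -0.46 and -0.40 were the other lower genes, and E2F8, at -0.24 and -0.21, was not called in either of the authors' deposited tables. Of the remaining followed genes, CCNE1 (0.78 and 0.66), CDT1 (0.62 and 0.58), MCM5 (0.40 and 0.45), E2F1 (0.35 and 0.35) and MCM2 (0.31 and 0.38) were higher in both, in the authors' deposited tables. CCNE2 (0.38 and 0.31), PCNA (0.01 and 0.14) and TYMS (-0.11 and 0.02) were called in neither, and RRM2 (-0.01 and 0.18) was called in the second of the authors' deposited tables. With the table medians of 0.22 and 0.19 set to 0, the splits were 17 higher and 9 lower, and 19 higher and 5 lower. Of all genes, 18.2% and 17.5% were then higher, and 27.2% and 25.7% lower. These comparisons join the effects of transfection, G3BP1 and arsenite.

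The RIP comparison asks which transcripts were recovered with FLAG-tagged G3BP1. The series holds no control precipitate from cells without the tagged protein, so binding to G3BP1 and background recovery cannot be told apart. By the authors' deposited table, 25 of the 44 transcripts were higher in the immunoprecipitate than in input and 17 lower, where 24.7% of all tested genes were higher and 31.4% lower. The median of the 44 was 0.52 and that of all tested genes -0.26. Over genes whose base mean reached 100 it was 0.12, and the 44 had a median base mean of 1710. Values per library could not be recovered for these 6 libraries, so the authors' fold changes and standard errors stand alone. The highest were the clamp loader RFC2 at 2.16 (SE 0.12, adjusted p 1.25e-68), TK1 at 1.95 (SE 0.12, adjusted p 8.74e-57), GINS2 at 1.94 (SE 0.13, adjusted p 9.16e-47) and RPA2 at 1.85 (SE 0.12, adjusted p 4.78e-50), and the lowest POLE at -3.21 (SE 0.12, adjusted p 6.40e-158), POLA1 at -2.58 (SE 0.12, adjusted p 1.96e-107), MCM10 at -2.04 (SE 0.12, adjusted p 8.66e-68) and UHRF1 at -2.02 (SE 0.11, adjusted p 3.77e-79), by the authors' deposited table. Of 4 markers listed for 293 cells, LIN28B had a base mean of 1164 and PAX2 of 45.8 in the authors' deposited table. NEFM and SOX11 were at 4.87 and 0.463 there. In the U2OS libraries LIN28B ran from 406 to 1496 normalised reads, PAX2 from 3.36 to 269, SOX11 from 2.45 to 52.8 and NEFM from 0 to 19.3. These markers therefore do not separate the 2 lines.

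Transcripts of the same complex went in different directions in this comparison. Among the 6 helicase subunits, MCM5 was higher at 1.26 (SE 0.17, adjusted p 6.97e-13), MCM2 at -1.51 (SE 0.14, adjusted p 2.19e-26), MCM6 at -1.40, MCM3 at -0.58 and MCM4 at -0.57 were lower, and MCM7 at -0.20 was not called, in the authors' deposited table. In the GINS complex, GINS1 at 0.71, GINS2 and GINS3 at 0.47 were higher and GINS4 at -0.75 lower (authors' deposited table). The 4 small loader subunits RFC2, RFC3 at 0.83, RFC4 at 1.05 and RFC5 at 0.63 were higher and the large subunit RFC1, at -1.53, lower in the authors' deposited table. The 3 polymerase catalytic subunits were all lower, POLD1 by less than POLE and POLA1, while the clamp PCNA was higher at 1.76 (SE 0.10, adjusted p 9.16e-69) by the authors' deposited table. All 3 RPA transcripts and FEN1, at 0.23, were higher and LIG1, at -0.83, lower there.

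The licensing genes GMNN, CDT1 and CDC6 were higher, at 1.21, 1.01 and 0.59, and ORC1 was lower, at -0.86, in the authors' deposited table. CDC45 at 1.18, TYMS at 1.11, RRM2 at 0.75, CCNE1 at 0.76, CCNE2 at 0.56, E2F1 at 1.12 and SLBP at 1.09 were higher, E2F2 at -0.32, E2F8 at -1.04, CHAF1A at -0.42 and CLSPN at -1.92 lower, and RRM1 at -0.29 was not called in the authors' deposited table. Of 24 genes with a RefSeq span up to 30 kb, 17 were higher and 6 lower, where 39.6% and 19.5% of all tested genes of that span were. Of the 20 longer ones, 8 were higher and 11 lower, where 21.7% and 47.9% of all such genes were. Across the 44 genes Spearman's rho between span and fold change was -0.43, a description over genes that share the same libraries. The mitotic list split in the same authors' deposited table into 10 higher and 8 lower of 20, and the other replication genes into 22 higher and 21 lower of 51. The Wald statistics of all genes in this table had a robust spread of 3.84, where 1 would be that of unchanged genes, and when divided by it 13 of the 44 calls remained, 6 higher (GMNN, PCNA, RPA2, GINS2, TK1 and RFC2) and 7 lower (POLE, POLA1, MCM10, UHRF1, CLSPN, RFC1 and MCM2), where 4.2% of all tested genes were higher and 6.71% lower. Reads of PCNA, RRM2, RPA2, TYMS, RPA3, RFC3, RFC5, FEN1 and ORC1 may be shared with pseudogenes named for them.

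**Figure D5:**
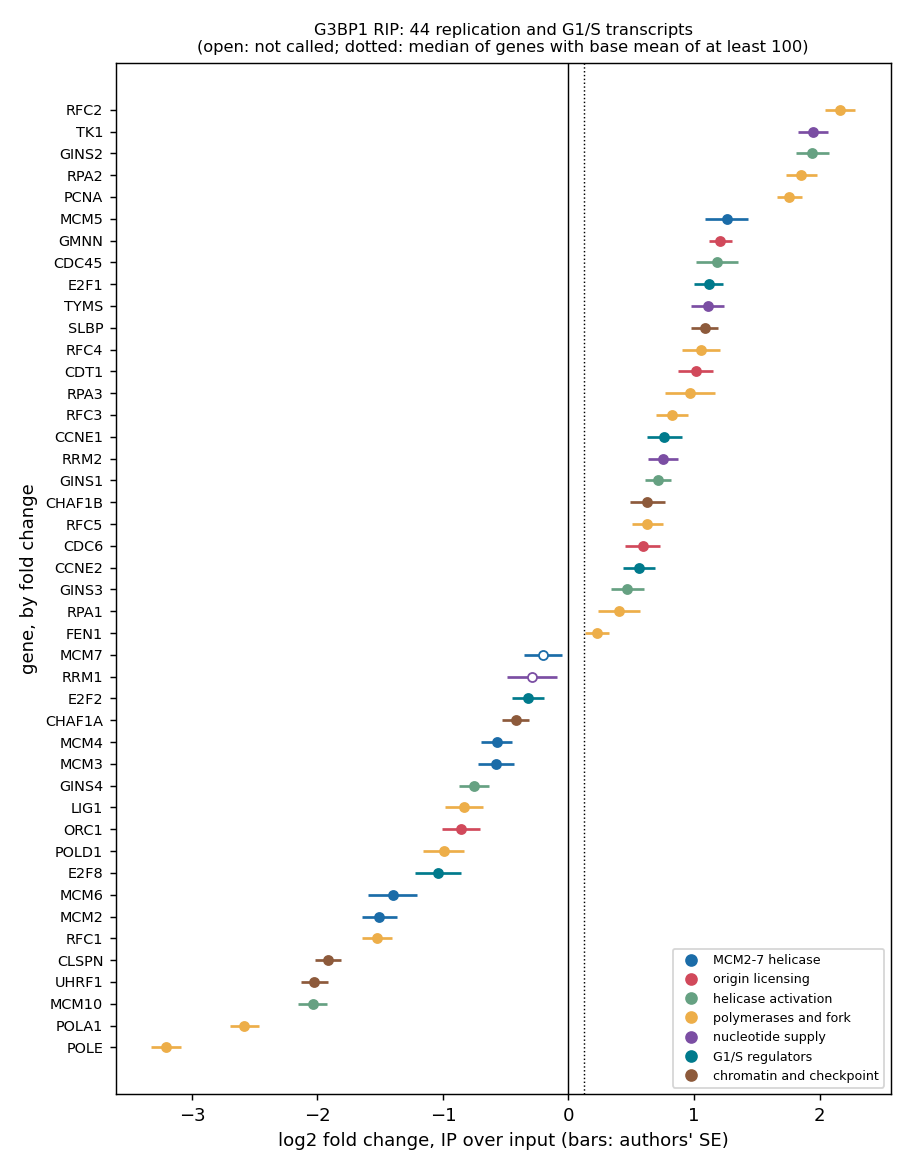
Log2 fold change of each of the 44 transcripts in the G3BP1 immunoprecipitate over input (horizontal axis), ordered by value and coloured by role; bars are the authors' standard errors, open points were not called, and the dotted line is the median, 0.12, over genes whose base mean reached 100. The polymerase and fork genes (yellow) lie at both ends, from POLE at -3.21 to RFC2 at 2.16.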

How the data were processed

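All results rest on 11 tables of comparisons that the authors made with DESeq2 2.11.40.6, after alignment with STAR (version 2.7.0f, or 1.5.3 for the second U2OS experiment), per the submitters' processing notes. RNA was extracted with TRIzol, poly-A selected and made into directional libraries, per the labels' protocols. The genome build, the annotation and the strand setting of the counting are not given in the sources used here. Of 72 libraries in the series, 24 in 11 groups were used and 48, of an RNA-editing assay, were not analysed here. The 44 genes and the comparison lists were chosen with earlier results of these data known, as were the tests.

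Per gene, the deposited base mean is a signal, the mean of size-factor-normalised reads over the libraries of the 2 groups compared. Fold changes were deposited in log2, shrunk toward 0 by the authors to a degree that differs between tables, with a standard error. The deposited Wald score is their quotient, and each deposited p-value and adjusted p-value is the authors'. The 4 summary lines of the read counting in each table were removed. Calls were made where that adjusted p-value, taken over all tested genes of the table, was under 0.05.

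A base mean is an average of whole reads over size factors, so the reads per library were worked out from the tables that share libraries. This gave reads for 19679 of 19679 genes at a base mean of 10 or more in the first experiment and for 15174 of 15176 in the second, and for all 44 genes in both; RIP libraries could not be recovered. A library's group follows from the tables it enters. The files carry no replicate numbers for these reads. Differences between tables were tested with a two-sided normal test of the difference over the root of the summed squared standard errors, with Benjamini-Hochberg adjustment over genes at a base mean of 10 or more in both; error shared through common libraries is ignored. Intervals are at 95%. Alternatives were limma 3.58.1 with a trend on log2(normalised reads + 0.5), or + 2, total scaling, each library left out, centring on the median over genes whose base mean reached 100, a base mean minimum of 50, a fold change of at least 0.5, and for RIP a robust spread (1.4826 times the median absolute deviation). Code was tested on simulated data. Analyses used Python 3.11.15 and R 4.3.3. Every one of the 44 genes is named, with values in each comparison for the 4 highest and 4 lowest and for 12 genes followed throughout (MCM2, MCM5, PCNA, CCNE1, CCNE2, CDC6, E2F1, E2F8, RRM2, TYMS, CDT1 and SLBP). E2F words were searched in RefSeq promoters of GRCh38.p14.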

Additional observations from a re-analysis of the deposited data

Results flagged for a closer look

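The arsenite response of POLE differed between backgrounds by the test of the difference itself. The response in the wild-type rescue minus that in knockout was -0.30 on the log2 scale (adjusted p 0.00278 over all genes tested, from the DESeq2 fold changes), and the response in the NTF2-deletion rescue minus that in knockout was -0.32 (adjusted p 0.00231). In each case both treated rescue libraries lay below both untreated ones, and the knockout libraries overlapped. POLE was the 1 member of 44 (2.27%) called smaller in each, where 2.68% and 3.08% of all tested genes were, so the share of members was not above that of all genes. Both differences use the same 4 knockout libraries, so they are not independent. Over the alternatives by limma that left out a library, the adjusted p of the first ran from 0.00237 to 0.0561 and that of the second from 0.000381 to 0.0125.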

How the results depend on the processing

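No paired analysis was possible because the recovered reads carry no replicate numbers and the tables hold no values per replicate. Counts of the 44 genes called in either direction moved by over 1.5 times under these settings. The counts in this paragraph are given without shares of all genes. They show how far the calls depend on the settings, and not how the members compare with other genes. With a log2 fold change of at least 0.5 asked for as well, the counts were 8 for knockout against wild type, 3 for knockout against G3BP1 rescue, 4 for wild type against rescue, 13 and 15 for the wild-type and NTF2-deletion rescue, 14 and 13 for the same rescues with arsenite, and 0, 0 and 0 for arsenite in knockout, wild-type rescue and NTF2-deletion rescue; both called arsenite differences fell to 0. Without the filter of the adjusted p on low means, the arsenite counts were 4 in knockout and 6 in wild-type rescue. By limma they were 20 and 5, also 20 and 5 with a pseudocount of 2 and 20 and 6 with total scaling. By limma the direct comparison of the rescues had 1 call (2 with a pseudocount of 2, 1 with total scaling), the arsenite difference of wild-type rescue and knockout 7 (7 and 8) and that of NTF2-deletion rescue and knockout 8 (8 and 8). The RIP count fell to 13 with a robust spread. Reversed in sign in the treated rescues over untreated knockout was RRM2 at -0.00984 (NTF2-deletion, centred; -0.0147 with total scaling) and RRM1 at -0.0052 (wild-type, centred; -0.00194 with total scaling), neither called then. Leaving out 1 library gave, by limma, 26 to 28 calls for knockout against wild type, 22 to 28 for knockout against rescue, 21 to 26 for wild type against rescue, 30 to 33 and 34 to 38 for the wild-type and NTF2-deletion rescue, 28 to 31 and 30 to 34 for these with arsenite over untreated knockout, 15 to 21, 1 to 8 and 2 to 2 for arsenite in knockout, wild-type rescue and NTF2-deletion rescue, 0 to 3 between rescues, and 2 to 9, 4 to 9 and 0 to 0 for the arsenite differences (wild-type rescue and NTF2-deletion rescue against knockout, and between rescues). For arsenite in the wild-type rescue the count of 5 fell to 2 without either untreated library and to 3 and 1 without treated library a and b. The arsenite difference of the wild-type rescue fell from 7 to 2 without either treated rescue library and to 3 without untreated knockout library b, and that of the NTF2-deletion rescue from 8 to 4 without either treated rescue library or untreated rescue library b, and to 5 without the same knockout library. With 2 libraries per U2OS group and 10.6 M reads in the shallowest, changes as small as those with arsenite may go undetected.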
